A study of Mus musculus with 6 samples.

Results

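RANK (Tnfrsf11a), its ligand RANKL (Tnfsf11), the decoy receptor osteoprotegerin (Tnfrsf11b), the adaptors Traf1, Traf2, Traf3, Traf5 and Traf6, and the kinase NIK (Map3k14) were examined in sorted tumor cells. These 9 genes were found on the arrays by the accession of each feature, with RefSeq giving the symbol, and 11 array features matched, 2 for Traf2, 2 for Map3k14 and 1 for each other gene. All 9 genes passed the filter on dim features and entered a test of 22502 genes or unnamed transcripts.

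RANK is a receptor of the TNF receptor superfamily. Binding of RANKL recruits TRAF adaptors to its intracellular tail, and these lead to NF-kB and MAP kinase signaling. Osteoprotegerin is secreted and captures RANKL before it reaches the receptor. The pathway is best known from osteoclast formation in bone, and in the mammary gland RANKL made by hormone-responsive luminal cells acts on neighboring epithelial cells that carry RANK.

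The RNA came from tumor cells sorted as CD45-, that is, lacking the surface protein that marks leukocytes. The tumors were late MMTV-PYMT carcinomas, in which the mouse mammary tumor virus promoter drives polyomavirus middle T, an oncogene, and were either RANK+/+ or RANK-/-. They were transplanted into the mammary gland of C57BL/6 hosts, young females that the study describes as wild type, so host cells with intact RANK but without CD45, such as fibroblasts, may also contribute RNA. Both genotypes carry the oncogene, both were given as C57BL/6, and neither was treated; an age is given for the hosts, not for the donors, in the sources used here. The RANK deletion was present in the germline of the donor mice rather than induced in one cell type. There were 3 pairs of RNAs, each joining one RNA per genotype, and 2 technical arrays per pair (A and B), hence 6 arrays and 3 pair ratios. RANK-/- RNA was in Cy5 in pair 1 and in Cy3 in pairs 2 and 3. Separate tumors for the RNAs of one genotype are not stated in the labels, so p values measure the spread between these pairs, which may be partly technical.

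Per array and genotype, 51.9% to 58.8% of gene features passed the background call of Feature Extraction (well above background). Values below are median spot intensities as scanned, normalized levels of one RNA on the log2 scale, or log2 ratios of the channel labeled RANK-/- over the channel labeled RANK+/+, with the SD over n = 3 pairs. Intensities of the 2 dyes cannot be set against each other before normalization. In bulk RNA, fewer cells of a type and less RNA per cell cannot be told apart.

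Tnfrsf11a, the deleted gene, is described first because it checks the labels. It was called well above background 6 times in each genotype's channel, and in every pair its normalized level was higher under the RANK-/- label. The intensity in the RANK-/- channel was 13523.5 and 12524 on the arrays of pair 1, 8854 and 8541.5 on those of pair 2, and 6343 and 6714 on the last 2. The RANK+/+ channel gave, in the same order, 2725 and 2121, 5657 and 5957, and 3463 and 4009. Local background lay between 30 and 74 over both channels.

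The normalized levels of Tnfrsf11a were 13.54, 13.36 and 13.08 in the RANK-/- RNAs of pairs 1, 2 and 3. They were 11.51, 12.21 and 11.32 in the RANK+/+ RNAs. The groups did not overlap, and the RNAs labeled RANK+/+ varied over a wider range (0.89) than those labeled RANK-/- (0.46). The log2 ratios were 2.03, 1.15 and 1.76, a mean of 1.65 ± 0.45 (SD, n = 3; SE 0.26), or 3.13-fold. The difference was thus larger than the spread between pairs, and the technical arrays of one pair differed by at most 0.06. The limma p was 0.0013 before and 1.00 after Benjamini-Hochberg adjustment over all genes. With both technical arrays kept in the fit, the adjusted limma p was 0.0111 when the 6 arrays were taken as separate, and 0.0195 where pairs entered as a random block. The first fit counts technical arrays of the same pairs as separate samples. The second allows for a correlation of arrays within pairs that is shared by all genes. Neither adds further RNAs, so the test on 3 pair ratios stands.

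The dyes were not balanced within a pair, so genotypes were also compared within each dye. In Cy5, the level of Tnfrsf11a in the RANK-/- RNA of pair 1 exceeded the mean of the RANK+/+ RNAs of pairs 2 and 3 by 1.77. In Cy3, the mean of the RANK-/- RNAs of pairs 2 and 3 exceeded the RANK+/+ RNA of pair 1 by 1.71. The difference was of like size in both dyes, but each comparison has an RNA of pair 1 alone on one side. Dye and pair 1 thus cannot be told apart here or in the within-dye values below.

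The signal of Tnfrsf11a therefore ran against the genotype labels in each pair. Whether the single array feature lies inside the deleted part of the gene is not given in the sources used here, and a feature outside it checks nothing. The direction of every other value below rests on the same labels, and so does its sign. Leukocyte markers were 8 of 12 tested in these CD45- RNAs. Their summed level ran from 13.14 to 13.48 in the RANK-/- channel and from 13.07 to 14.82 in the RANK+/+ channel. The B cell gene Cd79a was well above background on no array (0 of 6 in either channel). Ptprc, which encodes CD45 itself, was so on 5 of 6 in the RANK-/- and 4 of 6 in the RANK+/+ channel. Cd3e, Lyz2, Csf1r, Itgam, Cd68 and S100a8 were so on 6 of 6 in both. S100a8 had ratios of -3.99, 0.07 and -0.11, with a RANK+/+ level of 14.28 in pair 1. The median log2 ratio of the 8 tested markers was -0.45, 0.09 and 0.13 in pairs 1, 2 and 3, and 1 of the 8 had one sign in all pairs. Of other myeloid markers, Csf1r had ratios of -0.65, 0.07 and 0.57 and Itgam had 0.49, -0.23 and 0.03. Cd68 had -0.26, -0.42 and 0.26, and Lyz2 had -0.11, 0.24 and 0.13. The part of leukocytes in the Tnfrsf11a signal was not tested.

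**Figure D1:**
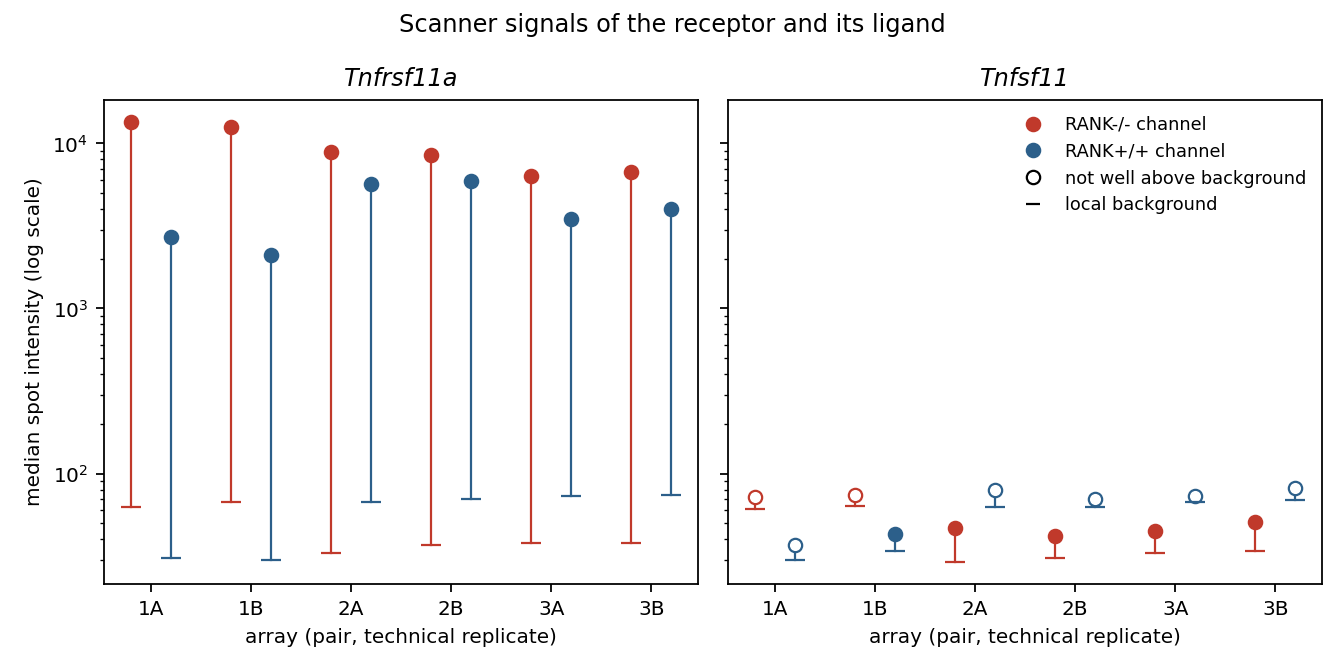
Median spot intensity (log axis) of Tnfrsf11a and Tnfsf11 on the 6 arrays, in the RANK-/- channel (red) and the RANK+/+ channel (blue), with a tick at the local background and open circles where Feature Extraction did not call the spot well above background. Tnfrsf11a stands at 2121 or above in every channel, whereas Tnfsf11 lies at 37 to 82, close to its background of 29 to 69.

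The promoters of the receptor and of its ligand are shown because the former gene gave signal under both genotype labels and the latter almost none under either. Each RefSeq window covers the 250 bases before the annotated start. The window of Tnfrsf11a is chr1:105780473-105780722 (GRCm38.p6, plus strand), and that of Tnfsf11 is chr14:78308044-78308293 (GRCm38.p6, minus strand). Capitals mark the GC box GGGCGG and the TATA motif TATAA, each searched on both strands.
Tnfrsf11a: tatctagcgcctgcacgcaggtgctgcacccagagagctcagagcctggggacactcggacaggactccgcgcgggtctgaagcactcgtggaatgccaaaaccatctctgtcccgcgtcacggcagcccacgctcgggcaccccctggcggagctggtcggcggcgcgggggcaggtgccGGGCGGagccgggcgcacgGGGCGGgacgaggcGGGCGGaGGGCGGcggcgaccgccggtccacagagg
Tnfsf11: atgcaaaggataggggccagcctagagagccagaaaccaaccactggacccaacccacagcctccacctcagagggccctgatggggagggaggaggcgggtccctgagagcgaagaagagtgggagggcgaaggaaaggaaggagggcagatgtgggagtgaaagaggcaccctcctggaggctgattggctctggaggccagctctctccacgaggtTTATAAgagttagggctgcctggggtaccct

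The Tnfrsf11a window held 4 GC boxes and no TATA motif (0), and the Tnfsf11 window held no GC box (0) and a TATA motif that reads on both strands (2 overlapping matches). Of the 9 genes 8 had a RefSeq window. The GC box was found in 5 of them (Tnfrsf11a, Traf3, Traf5, Traf6 and Map3k14), against 32.7% of all 32851 promoter windows of this length. The TATA motif was found in 2 (Tnfsf11 and Map3k14), against 22.8% of all windows. These letters describe the windows, and the use of these starts in the tumors was not measured.

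Tnfsf11, the ligand, was barely measurable. Its intensity in the RANK-/- channel was 72 and 74.5 on the arrays of pair 1, 47 and 42 on those of pair 2, and 45 and 51 on the last 2. The RANK+/+ channel gave, in the same order, 37 and 43, 79 and 70, and 73.5 and 82. The excess over local background was 10.5 to 18 in the RANK-/- channel and 6.5 to 16 in the RANK+/+ channel. The RANK-/- channel passed the background call on 4 of 6 arrays and the RANK+/+ channel on 1 of 6. Sorted by dye, these calls were 5 of 6 in Cy3 and 0 of 6 in Cy5. In pair 1, where the dyes are the other way round, neither RANK-/- spot in Cy5 was called and one RANK+/+ spot in Cy3 was, so the calls went with the dye. The gene passed the filter through the RANK-/- channel alone.

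The normalized levels of Tnfsf11 were 6.22, 6.32 and 6.39 in the RANK-/- RNAs and 6.23, 6.12 and 6.11 in the RANK+/+ RNAs, and they overlapped. Its pair ratios of -0.02, 0.20 and 0.27 (log2) had a mean of 0.15 ± 0.15. For so dim a feature the mean depends on how background is removed. It was 0.45 with no offset in the normexp correction and 1.15 with Agilent's processed signals.

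Tnfrsf11b, the decoy receptor, varied more between pairs than any other member. Its intensity in the RANK-/- channel was 198.5 and 219 on the arrays of pair 1, 530 and 473.5 on those of pair 2, and 251 and 270.5 on the last 2. In the RANK+/+ channel it was 979 and 954, 379 and 373, and 769.5 and 878. The spot was well above background throughout. The levels were 7.65, 9.23 and 8.46 in the RANK-/- RNAs and 10.22, 8.33 and 9.19 in the RANK+/+ RNAs. RANK+/+ was the higher RNA in pairs 1 and 3 and the lower in pair 2, and the groups overlapped. The log2 ratios of -2.56, 0.90 and -0.74 gave a mean of -0.80 ± 1.73, smaller than the SD, with a limma p of 0.31 and an adjusted p of 1.00. Without pair 1 the mean was 0.08. With a dye term in the fit it was -1.24, and within Cy5 and Cy3 the difference was -1.11 and -1.37. Only pair 1 had RANK-/- in Cy5, so these values give pair 1 more weight and cannot separate dye from pair.

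Basal and myoepithelial markers were all 6 tested, and none had one sign in all 3 pairs. Their summed level was 14.69 to 14.89 in the RANK-/- RNAs and 15.003 to 15.68 in the RANK+/+ RNAs. The median log2 ratio of the list was -0.71, 0.00 and -0.07 in pairs 1, 2 and 3, the order that Tnfrsf11b also had. Its part in the Tnfrsf11b values was not tested. Rspo1, which encodes a secreted enhancer of Wnt signaling, had ratios of -2.30, 0.96 and -2.38 and was named after its values were seen.

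Traf1, an adaptor that joins TRAF2 complexes and is itself induced by NF-kB, was the adaptor with the largest mean ratio. Its intensity in the RANK-/- channel was 1697 and 1671 on the arrays of pair 1, 809.5 and 765.5 on those of pair 2, and 1321.5 and 1366 on the last 2. In the RANK+/+ channel it was 340 and 285, 1541 and 1575.5, and 748 and 836. The levels were 10.66, 9.90 and 10.74 in the RANK-/- RNAs and 8.72, 10.39 and 9.11 in the RANK+/+ RNAs. The RANK+/+ RNA of pair 2 lay above its partner and within the range of the RANK-/- RNAs. The log2 ratios were 1.95, -0.49 and 1.63, a mean of 1.03 ± 1.32, with a limma p of 0.12 and an adjusted p of 1.00. Without pair 2 the mean was 1.79, and without pair 1 it was 0.57. Within Cy5 the difference was 0.92 and within Cy3 it was 1.60.

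All 8 luminal markers were tested, and all were mixed in sign, with a median log2 ratio of 0.29, -0.61 and 0.73 and a summed level of 17.32 to 18.84 in the RANK-/- RNAs and 17.56 to 18.19 in the RANK+/+ RNAs. Krt19, a luminal keratin, had the lowest mean of the list (-1.71), with ratios of -1.22, -3.95 and 0.03. Epcam, an epithelial surface protein, had ratios of 1.04, -0.67 and 0.52, and Krt18, another luminal keratin, had 0.45, -1.34 and 1.65. Krt8, the partner of Krt18 in luminal filaments, had -0.41, -0.55 and 2.08, and Cldn7, a tight junction protein, had -0.42, 0.48 and 0.93. Cdh1 had 0.27, -0.47 and -0.15, Cldn3 had 0.62, -0.39 and 0.48, and Elf3 had 0.30, -0.89 and 1.00. Every marker of the list except Cldn7 thus had its lowest ratio in pair 2, as did Traf1. The signs, and the order of pairs 1 and 3, varied between markers. The part of luminal content in the Traf1 values was not tested.

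Traf2, which carries the cIAP ubiquitin ligases to TNF receptors, differed little. The levels of its brighter feature were 12.56, 12.52 and 12.59 in the RANK-/- RNAs, a range of 0.06, and 12.63, 12.25 and 12.39 in the RANK+/+ RNAs. The log2 ratios were -0.07, 0.27 and 0.20, with a mean of 0.13 ± 0.18, which turned to -0.13 with median centring in place of loess and ran from 0.06 to 0.23 with one pair left out. Within Cy5 the difference was 0.24 and within Cy3 it was -0.07. The dim second feature, with intensities of 46 to 112, gave 0.10, 0.26 and -0.00 and a mean of 0.12. The groups overlapped for both features, which agreed in the sign of pair 2 and not in pairs 1 and 3.

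Traf3, which holds NIK in a complex that leads to its degradation, changed sign between pairs. Its levels were 10.85, 10.85 and 11.28 in the RANK-/- RNAs and 11.29, 10.86 and 10.92 in the RANK+/+ RNAs. The log2 ratios of -0.43, -0.01 and 0.36 had a mean of -0.03 ± 0.40, and of 0.17 without pair 1. The difference was -0.04 within Cy5 and -0.22 within Cy3. One RNA of each genotype was high, in different pairs, and the others lay close together.

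Traf5, an adaptor close to Traf2 in domain structure, stood higher under the RANK-/- label in each pair. Its intensity ran from 244 to 398 in the RANK-/- channel and from 189.5 to 458 in the RANK+/+ channel. The levels were 8.50, 8.81 and 8.37 in the RANK-/- RNAs and 8.07, 7.82 and 8.23 in the RANK+/+ RNAs. The groups did not overlap, although the lowest RANK-/- and the highest RANK+/+ level, both of pair 3, lay close together. The log2 ratios of 0.43, 1.00 and 0.14 had a mean of 0.52 ± 0.43 (1.44-fold). Within Cy5 the difference was 0.47 and within Cy3 it was 0.52. The limma p was 0.069 and the adjusted p 1.00, so the gene did not pass the test. Without pair 2 the mean was 0.29.

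Traf6, the adaptor needed for RANK signaling in osteoclasts, had the smallest spread. Its levels were 8.46, 8.14 and 8.29 in the RANK-/- RNAs and 8.42, 8.17 and 8.45 in the RANK+/+ RNAs, and they overlapped. Its pair ratios of 0.04, -0.03 and -0.17 (log2) had a mean of -0.05 ± 0.11, whose sign turned with Agilent's processed signals (0.0113) and without pair 3 (0.0076). Its difference was 0.15 within Cy5 and -0.20 within Cy3.

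Map3k14 encodes NIK, the kinase that starts the alternative NF-kB pathway. The levels of its brighter feature were 10.04, 10.93 and 10.38 in the RANK-/- RNAs and 9.89, 10.84 and 8.98 in the RANK+/+ RNAs. They overlapped, and both RNAs of pair 2 stood highest in their group. The log2 ratios were 0.15, 0.09 and 1.40, a mean of 0.55 ± 0.74 with a limma p of 0.16 and an adjusted p of 1.00. The second, dimmer feature gave 0.49, -0.15 and 0.38, so its sign differed in pair 2 and its ratio in pair 3 was much lower. Without pair 3, the brighter feature had a mean of 0.12. Its difference was 0.13 within Cy5 and 0.77 within Cy3.

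**Figure D2:**
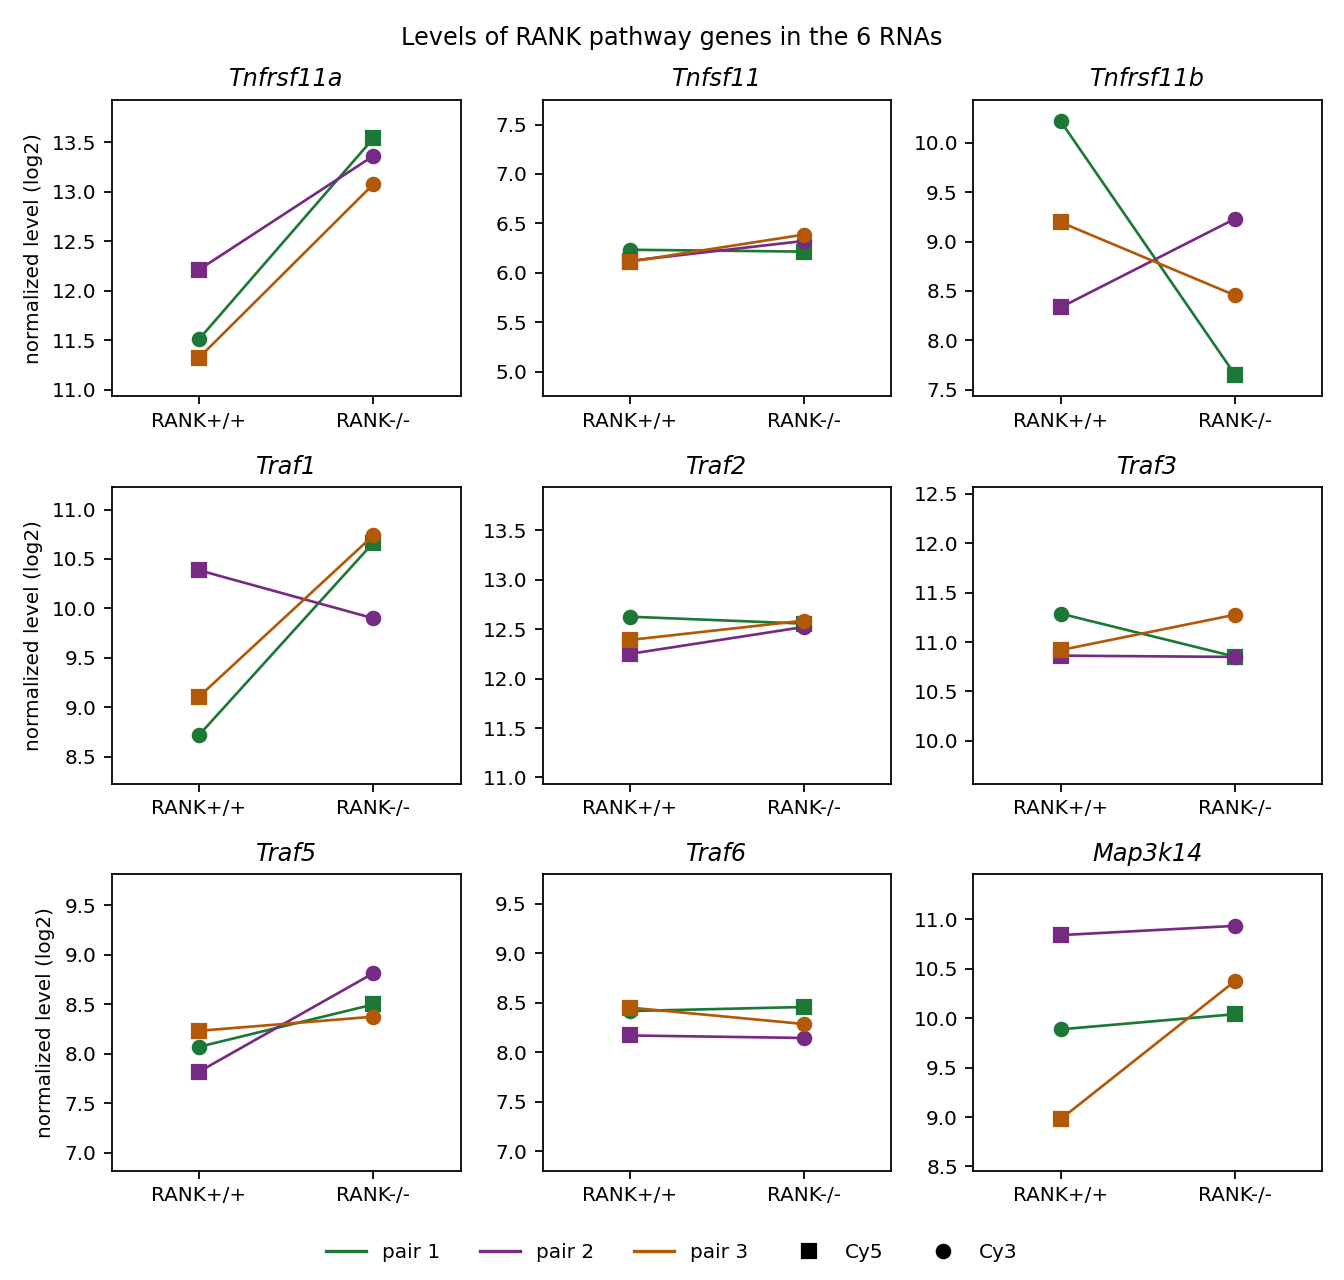
Normalized level (log2) of each gene in the 3 RANK+/+ and 3 RANK-/- RNAs, with lines joining the RNAs of a pair, squares for Cy5 and circles for Cy3; each panel spans 3 log2 units. The groups separate for Tnfrsf11a and Traf5, while the lines of Tnfrsf11b and Traf1 cross.

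Over the 9 genes, none passed limma after adjustment (0 genes), and neither did any of the 22502 genes tested (0%). At an unadjusted p under 0.05, 647 of these genes stood, and Tnfrsf11a was the only member among them. With robust eBayes and an intensity trend, 0 genes stood at that level, and the unadjusted limma p of Tnfrsf11a was 0.103. Of all genes tested, 1.66% had such a p with a higher and 1.22% with a lower RANK-/- signal. Tnfrsf11a, Traf5 and Map3k14 had a ratio above 0 in all 3 pairs, 3 of 9 against 9.95% of all genes. Map3k14 counts here through its brighter feature, while its second feature had -0.15 in pair 2. None of the 9 was below 0 in all pairs, against 9.65%. For Tnfrsf11a and Traf5 the 3 RANK-/- levels all lay above the RANK+/+ levels, 2 of 9 against 3.69% of all genes, and for 0 of 9 they all lay below, against 3.77%. With 9 genes, these shares rest on 2 or 3 members.

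Variation between pairs was larger than that between arrays A and B for all 9 genes. The technical SD was 0.02 to 0.08, and the SD between pairs ran from 0.11 for Traf6 to 1.73 for Tnfrsf11b. The order was Traf6, Tnfsf11 (0.15), Traf2 (0.18), Traf3 (0.40), Traf5 (0.43), Tnfrsf11a (0.45), Map3k14 (0.74), Traf1 (1.32) and Tnfrsf11b. Of the 9 genes, 6 exceeded the median SD of all genes, 0.329. The mean ratios of the members had a median of 0.15, against 0.00 for all genes tested.

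**Figure D3:**
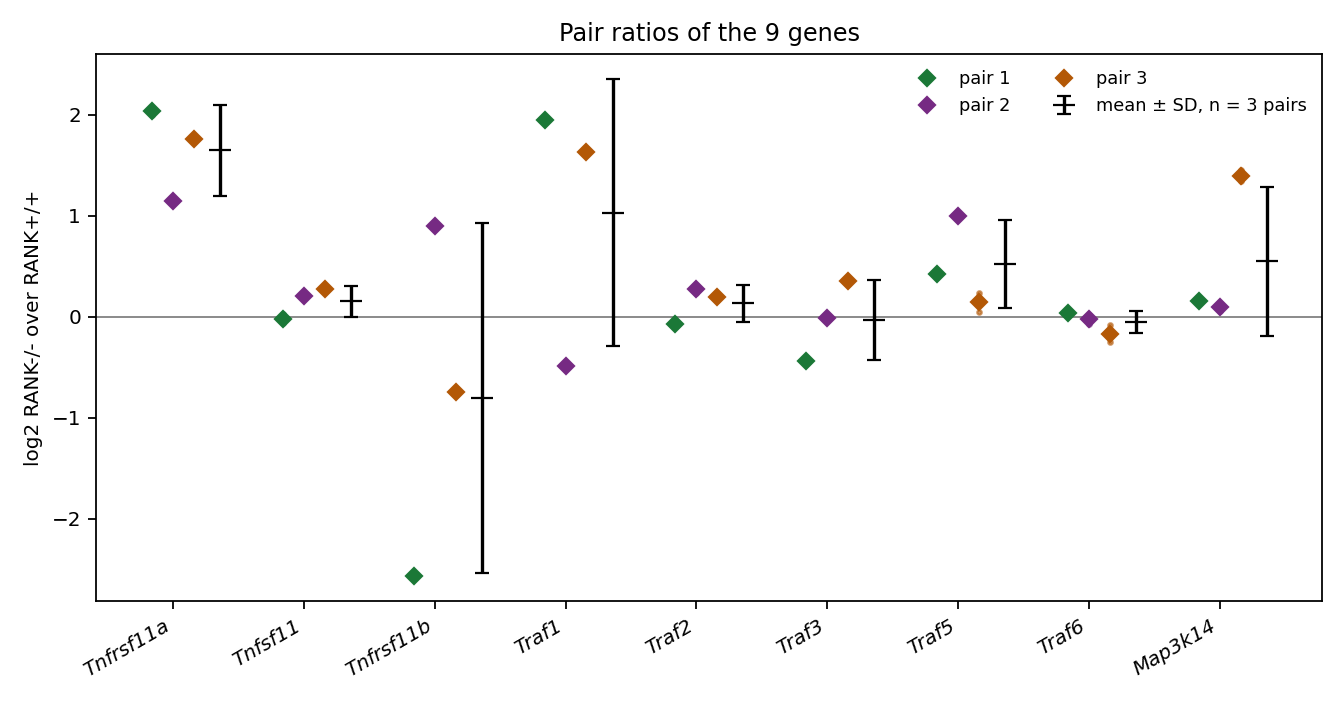
Log2 ratio of RANK-/- over RANK+/+ for the 9 genes, with a diamond for each pair, small dots for the technical arrays A and B, and a bar for the mean ± SD over 3 pairs. Tnfrsf11a lies between 1.15 and 2.03, and Tnfrsf11b and Traf1 span 0 widely.

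Genes around the receptor complex were read from lists. The list counts below stand against 9.95% of all genes higher and 9.65% lower in all 3 pairs. Levels of the groups did not overlap for 3.69% of all genes with RANK-/- above and 3.77% with RANK-/- below. Of 14 other TRAF genes and TRAF partners 12 were tested, of which 2 were higher in all 3 pairs, 0 were lower and 10 were mixed, with a median mean ratio of 0.11. Tnfaip3, which encodes A20, a deubiquitinase that restrains NF-kB, had levels of 11.85, 13.04 and 11.75 in the RANK-/- RNAs and 11.51, 11.38 and 10.72 in the RANK+/+ RNAs. The groups did not overlap. Its log2 ratios were 0.33, 1.66 and 1.03, a mean of 1.01 ± 0.66, with a limma p of 0.023 and an adjusted p of 1.00. Tnfaip3, and below Nfkbia, Tnfrsf21 and Id2, were named for an extreme mean among list genes of one sign in all 3 pairs. Their unadjusted p values and the lack of overlap follow in part from that choice. Birc3, encoding the ubiquitin ligase cIAP2, had a mean of 0.23 ± 0.32.

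Of 26 kinases and adaptors between RANK and NF-kB, 25 were tested, with 2 higher and 2 lower in all pairs, 21 mixed, and a median of 0.09. Nfkbia encodes IkBa, the inhibitor that NF-kB itself induces. Its levels were 15.27, 16.19 and 15.58 in the RANK-/- RNAs and 15.14, 14.61 and 13.92 in the RANK+/+ RNAs, without overlap. Log2 ratios of 0.13, 1.58 and 1.66 had a mean of 1.12 ± 0.86, with a limma p of 0.033 and an adjusted p of 1.00. In both Tnfaip3 and Nfkbia, pair 1 had the smallest ratio, whereas it had the largest for Tnfrsf11a. Ube2v1 and Ube2n encode the pair of proteins with which TRAF6 builds ubiquitin chains, and had means of 0.26 ± 0.32 and -0.39 ± 0.35. Map3k7, encoding the kinase TAK1, had a mean of -0.24 ± 0.33.

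Of 27 genes of the TNF receptor superfamily and its death domain adaptors 22 were tested, with 5 higher in all pairs, 0 lower and 17 mixed, and a median of 0.03. Tnfrsf21, encoding death receptor 6, had levels of 10.92, 11.06 and 10.08 in the RANK-/- RNAs against 9.66, 10.06 and 9.80 in the RANK+/+ RNAs, which just failed to overlap. Its log2 ratios of 1.27, 1.00 and 0.29 had a mean of 0.85 ± 0.51, with a limma p of 0.021 and an adjusted p of 1.00. Fas, a death receptor, had a mean of 0.63 ± 0.64. Of 17 TNF ligands 16 were on the array and 9 were tested, with 1 higher in all pairs, 8 mixed and a median of 0.22. The one was Tnfsf18, encoding GITRL, with a mean of 0.34 ± 0.23.

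Of 16 regulators of RANKL and known effects of RANK in mammary epithelium, all 16 were tested, with 2 higher and 1 lower in all pairs, 13 mixed, and a median of -0.08. Id2, which encodes an inhibitor of helix-loop-helix factors needed for growth of the lactating gland, had levels of 12.66, 12.79 and 12.45 in the RANK-/- RNAs. In the RANK+/+ RNAs they were 13.24, 13.20 and 13.65, all above the former. The log2 ratios of -0.58, -0.41 and -1.19 had a mean of -0.73 ± 0.41, with a limma p of 0.022 and an adjusted p of 1.00. Esr1, the estrogen receptor, and Stat5a, the factor downstream of prolactin, had means of 0.34 ± 0.33 and 0.33 ± 0.35. Pgr, the progesterone receptor that drives RANKL in the normal gland, had ratios of 0.04, -2.20 and -0.11.

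Of 12 osteoclast genes that RANK induces in bone, 9 were tested and all 9 were mixed in sign, with a median of 0.36. Calcr, the calcitonin receptor, was well above background on no array (0 of 6 in either channel).

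**Figure D4:**
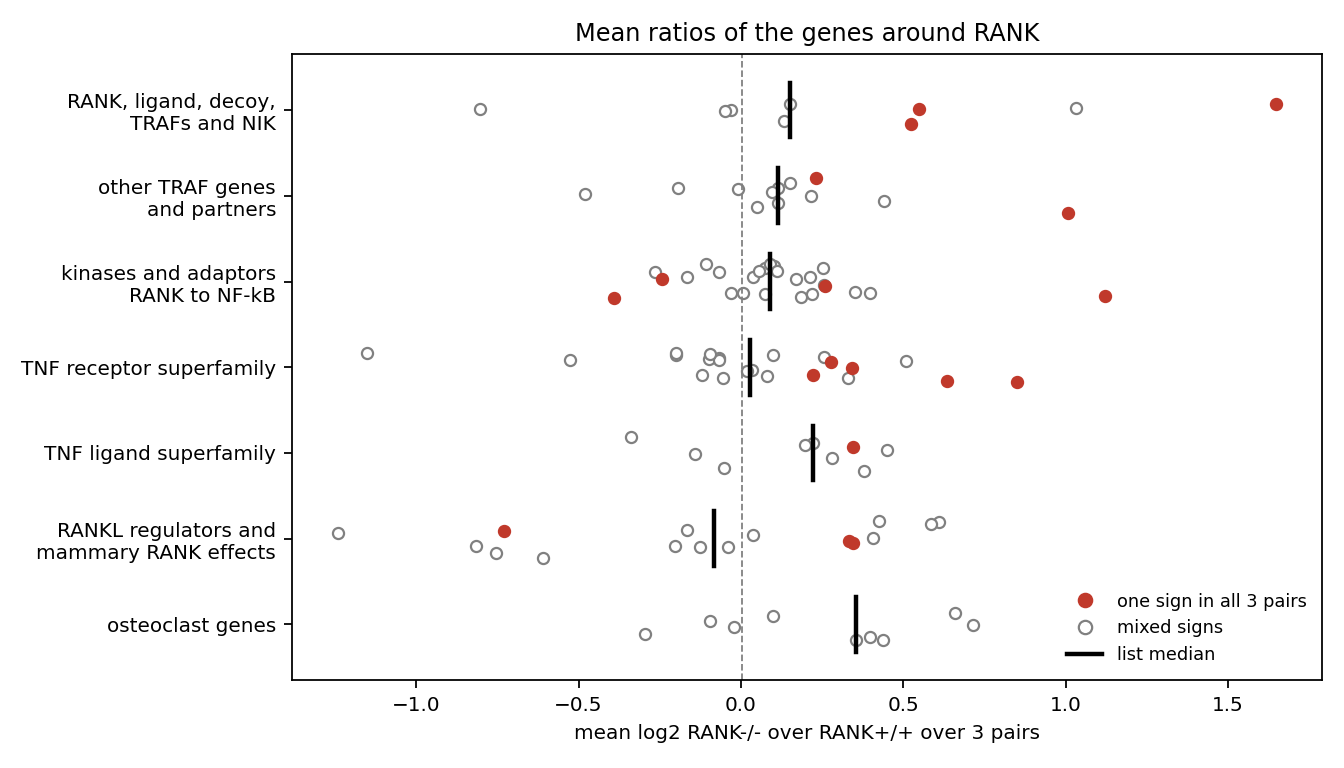
Mean log2 ratio over 3 pairs of each tested gene in the members and the 6 lists around RANK, filled where all 3 pairs have one sign and open where signs are mixed, with the list median as a bar and the median of all genes as a dashed line. Tnfrsf11a at 1.65 is the rightmost point, and the list medians lie between -0.08 and 0.36.

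Fibroblast markers stood beside several of these values. All 6 were tested, with a median log2 ratio of 0.04, 0.90 and 2.17 and a summed level of 17.07 to 17.76 in the RANK-/- RNAs and 15.51 to 17.09 in the RANK+/+ RNAs. Of the 6, 3 were higher in all pairs, against 9.95% of all genes, and 0 were lower, against 9.65%. Nfkbia, Traf3, the dim Tnfsf11, Fas and Stat5a were among the genes with the same order, pair 1 lowest and pair 3 highest. This likeness was picked out after the values were seen, and the share of all genes with this order was not counted. The part of fibroblast content in these values was not tested. All 5 endothelial markers were tested and mixed in sign, with a summed level of 11.50 to 11.71 in the RANK-/- RNAs and 11.20 to 11.60 in the RANK+/+ RNAs.

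Likeness to a member was measured as the root mean square difference of the 3 pair ratios over all tested genes. Nearest to Tnfrsf11a were an unnamed transcript (0.34), Cpd (0.35), another unnamed transcript (0.35), Sparcl1 (0.41) and Afap1l1 (0.45). Cpd encodes a carboxypeptidase and had ratios of 1.60, 0.81 and 2.01. Sparcl1 encodes a matrix glycoprotein and had 2.03, 0.84 and 1.13, and Afap1l1 had 1.35, 1.25 and 1.39. Near to Tnfrsf11b were Ankrd37 (0.22) and Reep1 (0.26). Ankrd37, known as a gene induced by hypoxia, had ratios of -2.23, 1.03 and -0.59. For Tnfsf11 no likeness is given, since its ratios rest on a feature near background. These likenesses rest on 3 ratios each.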

How the data were processed

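RNA of sorted CD45- cells was measured on SurePrint G3 Mouse 2-color arrays. The authors scanned the arrays with Feature Extraction 10.7.3.1, and the deposited tables give median spot and background intensity per channel, not normalized, together with processed intensity and a log10 ratio of Cy5 over Cy3. A further table of the whole series, also deposited, has the authors' own normalized log2 ratios, which per the methods are of each condition over the control after normexp, loess and Aquantile; which genotype is the control and the centring are not spelled out there; its column medians were -0.008 to 0.004, and set against the scanner ratios (r of 0.942 to 0.953) it ran as RANK-/- over RANK+/+. Both were alternatives only. The array grid names mm9, so no feature positions are given.

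With limma 3.58.1 (R 4.3.3, data.table version 1.17.8), intensities were corrected by normexp (offset 50), normalized by loess and Aquantile, turned to RANK-/- over RANK+/+ and averaged over arrays A and B. The 3671 control spots had weight 0 in loess, and outlier spots (212 to 260 gene spots per array) were left out; no spot was saturated (0). A feature was kept if, for one genotype or the other, arrays A and B of 2 or more pairs called it well above background (30231 of 55681, 54.3%), and the brightest feature stood for a gene. Symbols came from RefSeq (GRCm38.p6; 28026 features matched). The 3 pair ratios were tested with lmFit and eBayes, intercept only, two-sided, with Benjamini-Hochberg adjustment at 0.05, and the fit was tested on simulated data. The smallest p of an exact two-sided sign-flip test with 3 pairs is 0.25, and precision is limited by the number of pairs. The study's rank product test was not used here. Its methods describe dye swaps, but per the labels A and B of a pair have the same dyes. All arrays lay on 1 slide, so no batch could be tested. Groups, pairs and dyes came from the labels.

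Members and lists were chosen with earlier results of these data known. Genes named besides the members were the 5 nearest to Tnfrsf11a and 3 nearest to Tnfsf11 and Tnfrsf11b, and in each list the 2 highest and 2 lowest among genes of one sign in all 3 pairs; markers and a few list genes named for a role or pattern were added after their values were seen. The promoter motifs were also chosen late. Some genes that the rule or a list holds are not reported here. Alternatives varied background, normalization, filter, feature choice, technical arrays, model and pairs left out.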

Additional observations from a re-analysis of the deposited data

How the results depend on the processing

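Across 20 alternatives Tnfrsf11a stayed higher in the channel labeled RANK-/-, with a log2 ratio between 1.39 and 1.89. Several of them change only the test or the filter and cannot move a ratio, so fewer than 20 bear on its sign. Tnfrsf11a passed the threshold in 2 of the 20, which keep technical arrays apart in the fit, with 1.65 in both. For it, the adjusted limma p was 0.0111 with 6 separate arrays and 0.0195 where pairs entered as a random block (consensus correlation 0.962). With robust eBayes and trend its unadjusted p rose to 0.103, and 0 genes stood under 0.05 before adjustment. The 2 settings on single arrays raised the number of genes called from 0 to 298 and 13. A fit with no replicate block, which ignores the pairing, gave 0 calls (827 before adjustment), and RNAs of a pair did not deviate together (r of -0.03, -0.22 and -0.04). Traf1, Traf5 and Map3k14 kept a positive sign in all 20 alternatives, several of which could not change it. Tnfsf11 gave a value in 19, from 0.09 to 1.15, but it passed the filter through the RANK-/- channel alone, so its sign says nothing of stability; the stricter filter left it out. Traf2 reversed to -0.13 with median centring in place of loess, and Traf6 to 0.0113 with Agilent's processed signals. With a pair left out, Tnfrsf11b ran from -1.65 to 0.0783, Traf3 from -0.22 to 0.17 and Traf6 from -0.10 to 0.0076, the upper value being the reversal without pair 1 for the first 2 genes and without pair 3 for Traf6; the cause was not tested. A dye term, which cannot be told apart from pair 1, moved Tnfrsf11b to -1.24. Traf2 ran from 0.06 to 0.23 with a pair left out. Dim signal limits Tnfsf11 and the second Traf2 feature most.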
